A study of Mus musculus with 2 samples.

Results

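The clustered protocadherins are cell surface adhesion proteins encoded by 3 neighbouring gene clusters, alpha, beta and gamma, on mouse chromosome 18. Members were taken as every gene of the deposited count table whose Ensembl identifier has a symbol of the Pcdha, Pcdhb, Pcdhga, Pcdhgb, Pcdhac or Pcdhgc series. The annotation held 58 such genes, and 41 of them were among the 16190 genes of the table: 1 of 14 alpha, 19 of 22 beta and 21 of 22 gamma genes. The other 17, among them Pcdhac1, Pcdhb1, Pcdhb13, Pcdhb21 and Pcdhga10, were not among the genes analysed here. The study compared RNA of satellite cells, the stem cells of skeletal muscle, which the labels divide into 2 genotypes of the C57BL/6 strain, both from the tibialis anterior muscle. The Cipc-flox/flox library, titled Cipc+/+, came from mice with floxed Cipc alleles, and the Cipc-scko library, titled Cipc-/-, from mice that lost Cipc in satellite cells. Cipc encodes a repressor of the circadian CLOCK protein. The Cre driver, the number of animals behind a library, their age and their sex are not stated in the labels. These libraries are called the control and the knockout below. Each genotype had 1 library, so no difference has a replicate check. Intervals reflect counting error alone. The family was chosen by name after values of these same libraries had been seen, Pcdhga11 among them, so its values are descriptions of 2 libraries and not tests.

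Clustered protocadherins bind the same isoform on a facing cell and are best known from neurons, where each cell uses a small set of isoforms as an identity tag that lets sister branches avoid each other. Each alpha and gamma gene has a large variable exon with its own promoter, spliced to constant exons shared by the whole cluster, whereas a beta gene is mostly a single exon without a shared tail. Most promoters are chosen at random in a neuron, through CTCF and cohesin looping and loss of promoter methylation. The C-type genes Pcdhac1, Pcdhac2, Pcdhgc3, Pcdhgc4 and Pcdhgc5 stand at the ends of the alpha and gamma arrays and follow other rules. Pcdhgc3 is the member known for broad use outside neurons.

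The table summed to 16830168 counts in the knockout and 16145870 in the control. The targeted gene, Cipc, had 594 and 1907 counts in these libraries, a log2 ratio of -1.61 (95% counting interval -1.74 to -1.47), so its count was lower in the library labelled as deleted but not 0. Of 15 satellite cell markers listed, 13 were in the table, and none of these was at 0 in either library. Pax7, the defining transcription factor of satellite cells, nevertheless had 998 counts in the knockout and 43 in the control. The other markers did not all follow Pax7. Myod1 had 19132 and 1916 counts, Myf5 1062 and 1042, Itga7 21804 and 18326, and Sdc4 1799 and 2985. Xist had 4 and 3898 counts, and the sum of Ddx3y, Kdm5d and Uty, which lie on the Y chromosome, was 1014 and 0. The genotype and the sex of the cells cannot be told apart with these libraries. In RNA from many cells, fewer cells using a gene and less RNA per cell cannot be told apart either.

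The locus spans 911.69 kb of GRCm38 chromosome 18, from 36930184 to 37841873 on the plus strand. The alpha cluster lies at 36930184 to 37187661, the beta cluster at 37264938 to 37524479 and the gamma cluster at 37661793 to 37841873. All gamma genes share their 3′ constant exons, which cover 2119 bases and make up between 27.8% and 45.9% of the merged exons of a gamma gene in the table. The alpha constant exons cover 2860 bases, or 48.6% of the exons of Pcdhac2. Of the 19 beta genes in the table, 15 have 1 annotated exon. For 40 of 41 members the length implied by the deposited count and FPKM lay within 0.5% of the summed length of the distinct annotated exons, constant exons included. The exception was Pcdhgb8, whose implied length lay at its merged exon length. An exon that differs between transcripts is counted more than once in the summed length. Apart from Pcdhgb8, this touches the members with more than 1 transcript, which were 17 with Pcdhgb8 included, 13 of them gamma genes. Levels of the leading gamma genes are therefore given both as FPKM and as CPM, counts scaled to library size, per kilobase of merged exons. Gamma genes at 0 beside neighbours with high counts show that reads of the constant exons were not given in full to every gamma gene. Which gene received them, and how much of a gamma count they make up, is not shown by the files.

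Expression of the locus in both libraries was carried by gamma genes, and within them by few. The gamma genes held 93.2% of all clustered protocadherin counts in the knockout and 97.3% in the control, and the beta genes 6.68% and 2.57%. FPKM reached 1 for 9 members in the knockout and for 4 in the control. Of the 41 members, 2 were at 0 counts in the knockout and 9 in the control. Of all 16190 genes, 939 and 1532 were at 0. In CPM, 35 of the 41 members were higher in the knockout, but 15 of the 41 had under 20 counts over both libraries. No share over all genes stands beside that number of 35, and nothing is read from it.

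**Figure D1:**
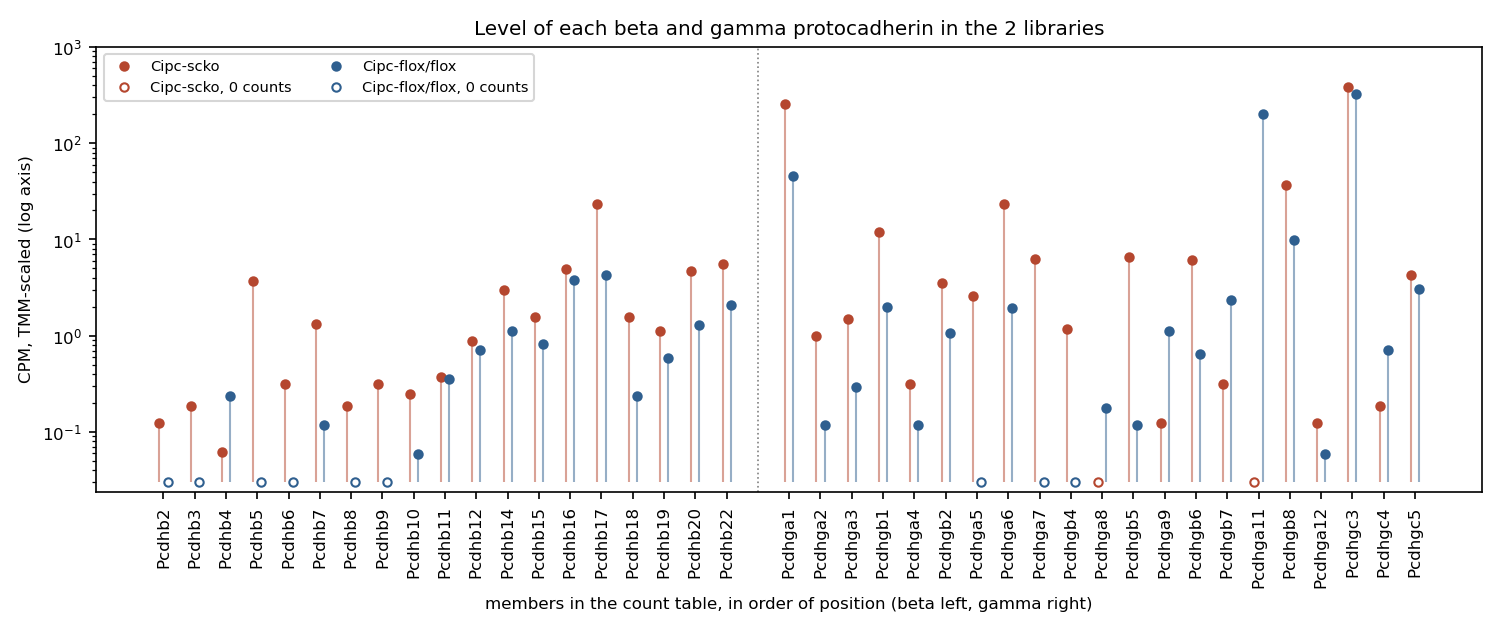
Level of each beta and gamma member in CPM on a log axis, in order of position in the locus, with Cipc-scko in red and Cipc-flox/flox in blue; open symbols stand for 0 counts and are drawn at the foot of the axis. Pcdhgc3 stood high in both libraries, Pcdhga11 reached 203 CPM in Cipc-flox/flox against 0 counts in Cipc-scko, and Pcdhb17 stood above the other beta genes in both libraries.

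Most members with enough counts were higher in the knockout. A gene entered the comparison with at least 1 CPM in a library and 20 counts over both, and it counted as called if it differed by 2-fold or more with a counting interval that excluded equality. Of the 25 members that entered, 17 (68%) were called higher in the knockout, where 21.2% of all 12874 genes that entered were called higher. Another 3 members (12%) were called lower, against 15.9% of all genes, and 5 were called neither. Given as the log2 of knockout over control, the median ratio was 1.89 over these members, also with members at 0 set at their bounds, and 0.01 over all genes that entered. Since the family was chosen with this contrast in view, nothing is read from these shares and medians. Of the 16 members that did not enter, 15 had under 20 counts. Pcdhb12 stayed out because its 26 counts, split nearly evenly, left it under 1 CPM in both libraries, whereas Pcdhga9 entered with 21 counts, nearly all in the control. A gene could enter through 1 library alone, as Pcdhb5, Pcdhga5, Pcdhga7 and Pcdhga11 did with 0 counts in the other. The limit therefore favours genes that differ, among members as among all genes, and the shares and medians carry this. Without this limit 19 of the 41 members were called higher, 4 lower and 18 neither. Of all genes, 20.1% were then called higher and 14.6% lower.

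**Figure D2:**
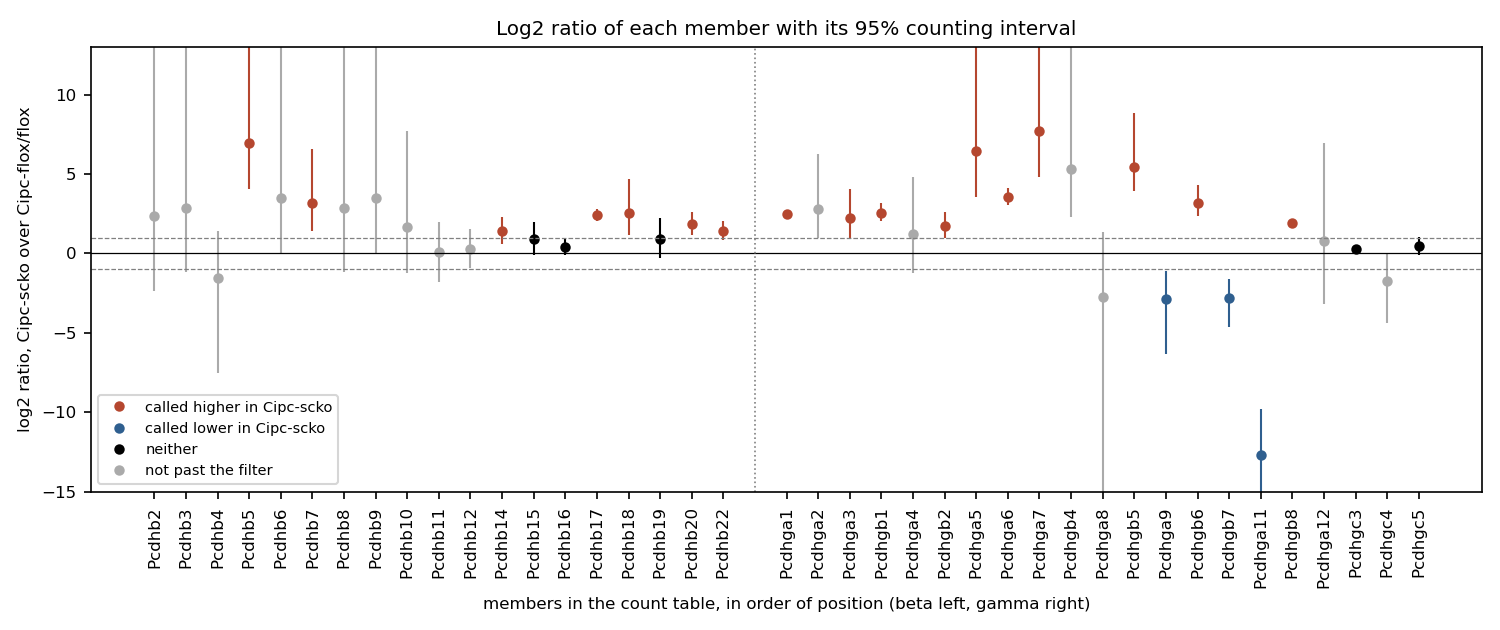
Log2 of Cipc-scko over Cipc-flox/flox for each beta and gamma member in order of position, with 95% counting intervals; red and blue mark members called higher and lower, black those called neither, grey those with too few counts, and dashed lines mark 2-fold. A member at 0 in a library is drawn at a value set by the prior count of 0.5 with an interval open on that side; 17 members were called higher and 3 lower.

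Pcdhga1, Pcdhga11 and Pcdhgc3 together made up 85.7% of the gamma counts in the knockout (exact binomial interval 85.1% to 86.3%) and 96.0% in the control (95.6% to 96.4%). Pcdhgc3 led by count in both libraries, followed by Pcdhga1 in the knockout and by Pcdhga11 in the control. Pcdhgc3 (ENSMUSG00000102918, 37806364 to 37841873), the broadly used C-type gene, had 6137 counts in the knockout and 5435 in the control, or 382 and 321 CPM. Its log2 ratio was 0.25 (0.20 to 0.30), so the most counted member of the family differed by less than 2-fold. In the knockout it stood at 38.2 FPKM, or 69.5 CPM per kilobase of merged exons. Of the exons of Pcdhgc3 outside the constant ones, 1559 bases overlap the antisense gene BC037039, which had 30 and 50 counts. Whether counting used strand is not given in the sources used here.

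Pcdhga11 (ENSMUSG00000102742, 37755731 to 37841873), a gamma A isoform, had 0 counts in the knockout and 3443 in the control, where it stood at 203 CPM. Set against a floor of 3 counts, it was at least 1089-fold lower in the knockout. The 95% counting interval of its ratio ended at -9.79 on the log2 scale, a smaller difference than the floor gives, as it does for the other members at 0 given such a bound. In the control it had the highest FPKM of the family, 44.8 against 35.3 for Pcdhgc3. That order turns with the length used: per kilobase of merged exons, Pcdhga11 stood at 42.8 CPM and Pcdhgc3 at 58.4 in the same library. None of the 50-base words of its own exons occurs in the exons of another member. Of its own exons, 1381 bases overlap the antisense gene Gm26672, which was not among the genes analysed here. Gm26672 also overlaps exons of Pcdhgb7 and Pcdhga12 and covers all of the own exons of Pcdhga10.

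Pcdhga1 (ENSMUSG00000103144, 37661793 to 37841873), the first gene of the gamma array, differed the other way. Of its own exons 406 bases overlap the antisense gene Gm37118. It had 4111 counts in the knockout and 777 in the control, or 256 and 45.9 CPM, a log2 ratio of 2.48 (2.37 to 2.59). Its FPKM was 30.8 and 6.06, and per kilobase of merged exons it stood at 47.7 and 8.55 CPM, below Pcdhgc3 on both scales in both libraries. It was thus present in both, unlike Pcdhga11, and supplied 34.4% of the gamma counts in the knockout and 7.73% in the control. Pcdhga11 supplied 34.2% in the control, while Pcdhgc3 supplied 51.3% and 54.0%. All gamma A genes together supplied 39.1% and 42.6% of these counts. The share of the subfamily was thus closer between the libraries than the share of either of its main members. Counts do not allow for gene length: of the summed gamma FPKM, gamma A genes supplied 42.6% and 57.0%, further apart than by count. That gap depends on the length used. In the control Pcdhga11 supplied 49.4% of the gamma FPKM but 37.4% of the gamma CPM per kilobase of merged exons. For Pcdhga1 in the knockout these shares were 35.1% and 34.4%.

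**Figure D3:**
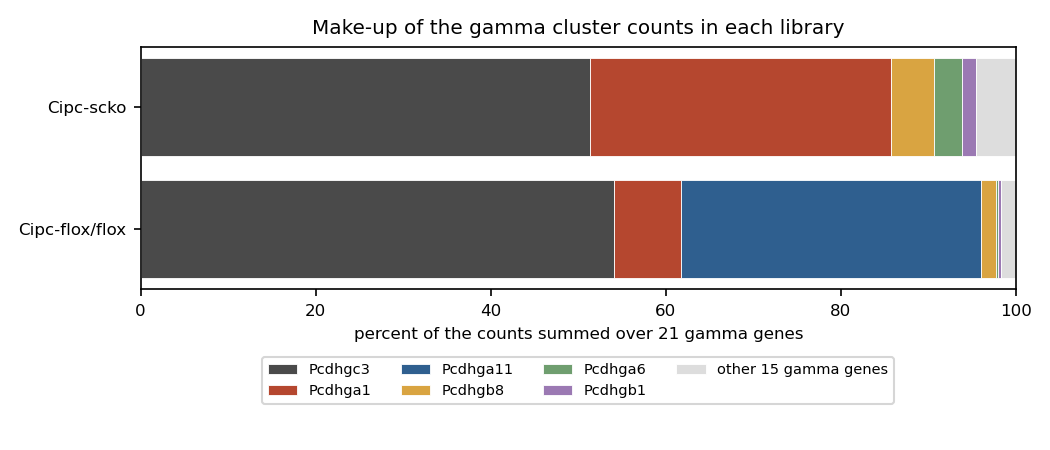
Share of each main gamma gene in the counts summed over the 21 gamma genes of the table, one bar per library. Pcdhgc3 took 51.3% and 54.0% of the bars, Pcdhga1 took 34.4% in Cipc-scko and Pcdhga11 took 34.2% in Cipc-flox/flox.

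The other gamma A genes, which like Pcdhga1 encode alternative variable ectodomains, were mostly higher in the knockout. Of 11 gamma A genes, 7 entered the comparison: 5 were called higher and 2 lower, and their median ratio was 2.48 on the log2 scale. Among all genes 21.2% were called higher and 15.9% lower. Pcdhga6 had 371 counts in the knockout and 33 in the control, a log2 ratio of 3.55 (3.05 to 4.13). Pcdhga7 had 101 and 0 counts and was at least 35.5-fold higher, and 536 bases of its own exons overlap the antisense gene Gm37165. Pcdhga5 had 42 and 0 counts and was at least 14.8-fold higher. These 3 genes lie next to each other in the array, with Pcdhga6 counted in both libraries and its neighbours in the knockout alone. Pcdhga3 had 24 and 5 counts, a log2 ratio of 2.23 (0.92 to 4.09). Pcdhga9, named after its values were seen, had 2 and 19 counts and was the other gamma A gene called lower, at -2.90 (-6.32 to -1.12). The remaining gamma A genes stayed under 20 counts over both libraries: Pcdhga2 had 16 and 2 counts, Pcdhga4 had 5 and 2, Pcdhga8 had 0 and 3, and Pcdhga12 had 2 and 1. A count of 0 allows up to 3 counts, or a level of 0.187 CPM (knockout) and 0.177 CPM (control).

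The gamma B genes, the second variable subfamily of the array, showed the same direction in most members. All 7 were in the table and 6 entered, around a median of 2.23. Of these 5 were called higher and 1 lower, against 21.2% and 15.9% of all genes. Pcdhgb8, which the annotation classes as a polymorphic pseudogene and not as protein coding like the other members in the table, was the most counted. It had 597 counts in the knockout and 169 in the control, a log2 ratio of 1.89 (1.65 to 2.15). Pcdhgb1 had 194 and 34 counts, a log2 ratio of 2.57 (2.06 to 3.16). It shares 1038 bases of exon with Pcdhga4 on the same strand, and 39.3% of its own 50-base words occur in another member, so its count is uncertain. For the gamma genes other than this pair that share was at most 16.4%. Pcdhgb5 had 105 and 2 counts, the widest ratio among gamma B genes counted in both libraries at 5.47 (3.90 to 8.86). Pcdhgb6 had 99 and 11 counts, a log2 ratio of 3.19 (2.34 to 4.29). Pcdhgb2 had 57 and 18 counts, a log2 ratio of 1.71 (0.95 to 2.59). Pcdhgb7, which lies just before Pcdhga11, went the other way with 5 and 40 counts, a log2 ratio of -2.81 (-4.62 to -1.58). Of its own exons 771 bases overlap the antisense gene Gm26672. Pcdhgb7 and Pcdhga9, like Pcdhga11, thus had their higher count in the control, but at levels of 2.36 and 1.12 CPM there against 203. Pcdhgb4 had 19 and 0 counts.

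The promoters of C-type genes stand outside the random choice described in neurons. Of the 4 C-type genes analysed, only 2 entered, and both were called neither. Of all 12874 genes that entered, 8089 were called neither as well. Whether the promoter rule bears on the C-type values was not tested. Besides Pcdhgc3, Pcdhgc5 entered the comparison, with 68 counts in the knockout and 52 in the control. Its log2 ratio was 0.46 (-0.08 to 1.01), with an interval that includes equality and reaches just past 2-fold. Of its own exons 902 bases overlap Gm38182, a gene on the same strand that had 22 and 9 counts. Pcdhgc4, whose protein is needed for the survival of neurons, had 3 and 12 counts, a log2 ratio of -1.77 (-4.39 to -0.03), and was called lower when the limit on low counts was dropped. Pcdhac2, the only alpha gene in the table, had 9 and 8 counts, or 0.56 and 0.47 CPM, and a log2 ratio of 0.23 (-1.30 to 1.82). At this depth a difference of Pcdhac2 was not detectable, and the alpha cluster is described by this gene alone.

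The beta genes, which encode adhesion proteins without the shared gamma tail, were low in both libraries and mostly higher in the knockout. Of 19 beta genes, 10 entered: 7 were called higher, 0 lower and 3 neither, around a median of 1.62. The same rule called 21.2% of all genes higher and 15.9% lower. Pcdhb17 (37484795 to 37489454) was the most counted, with 373 counts in the knockout and 73 in the control, or 23.2 and 4.31 CPM, a log2 ratio of 2.42 (2.06 to 2.81). It supplied 43.5% and 27.4% of the beta counts. Pcdhb5 had 60 and 0 counts and was at least 21.1-fold higher. Pcdhb22 had 89 and 35 counts, a log2 ratio of 1.41 (0.84 to 2.03), and Pcdhb20 had 75 and 22, a log2 ratio of 1.82 (1.14 to 2.60). Pcdhb17, Pcdhb20 and Pcdhb22 lie toward the gamma-side end of the cluster and Pcdhb5 nearer its start.

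Pcdhb14 had 48 and 19 counts, a log2 ratio of 1.39 (0.62 to 2.26). Pcdhb18 had 25 and 4 counts, a log2 ratio of 2.57 (1.19 to 4.70), and Pcdhb7 had 21 and 2, a log2 ratio of 3.17 (1.44 to 6.61). The last 2 rest on few counts, as their intervals show. The 3 beta genes called neither were Pcdhb16 with 80 and 64 counts, Pcdhb15 with 25 and 14, and Pcdhb19 with 18 and 10. Their log2 ratios of 0.40 (-0.09 to 0.90), 0.89 (-0.09 to 1.97) and 0.89 (-0.27 to 2.20) were above 0, with intervals that include equality. Pcdhb16 was close to Pcdhb17 in the control, at 0.76 and 0.97 FPKM, but not in the knockout, at 0.91 and 4.76 FPKM. Pcdhb12 had 14 and 12 counts and stayed under 1 CPM, and 1927 of its bases overlap the antisense gene Gm37446. The other 8 beta genes had between 2 and 12 counts over both libraries. Pcdhb4, with 1 and 4 counts, was the one beta gene with the higher count in the control. At most 12.0% of the 50-base words of a beta gene occur in another member.

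Summing counts over a cluster removes the question of which of its genes in the table received a shared read. Among the gamma sums below, that holds for the whole gamma sum alone. Reads of the constant exons could fall to genes of any gamma subfamily. Subfamily sums and gamma sums without a gene therefore keep the question. The beta sum was 857 counts in the knockout and 266 in the control, a log2 ratio of 1.76 (1.56 to 1.97) or 3.40-fold. The gamma sum was 11958 and 10058 counts, or 745 and 594 CPM, a log2 ratio of 0.33 (0.29 to 0.36) or 1.25-fold. The cluster as a whole therefore differed far less than most of its genes. The gamma B sum was 1076 and 274 counts, a log2 ratio of 2.05 (1.86 to 2.25). Of these counts 597 and 169 were those of Pcdhgb8, annotated as a polymorphic pseudogene. The C-type sum, which includes the alpha gene Pcdhac2, was 6217 and 5507 counts, a log2 ratio of 0.25 (0.20 to 0.30). The gamma A sum was 4674 and 4285 counts, a log2 ratio of 0.20 (0.14 to 0.26), and this value joins opposite differences of its 2 main genes. Without Pcdhga11 the gamma A sum was 4674 and 842 counts, a log2 ratio of 2.55 (2.44 to 2.66). Without Pcdhga1 and with Pcdhga11 kept, the gamma A ratio turned to -2.56 (-2.69 to -2.43). The 18 gamma genes other than Pcdhga1, Pcdhga11 and Pcdhgc3 summed to 1710 and 403 counts, a log2 ratio of 2.16 (2.00 to 2.32) or 4.47-fold. With library totals in place of scaled library sizes, the gamma ratio was 0.19 and the C-type ratio 0.12.

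**Figure D4:**
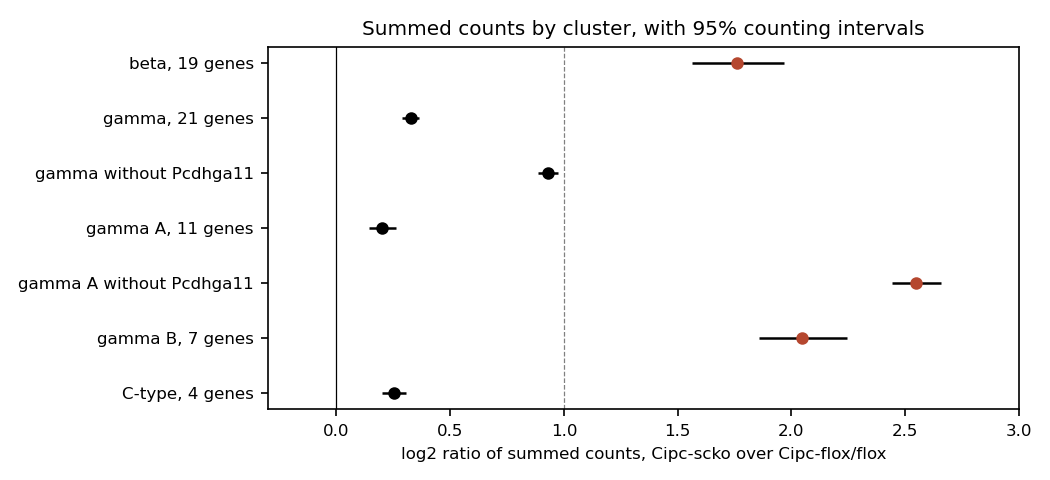
Log2 of Cipc-scko over Cipc-flox/flox for counts summed by cluster and subfamily, with 95% counting intervals; the dashed line marks 2-fold and red marks sums past it. The beta sum at 1.76 and the gamma B sum at 2.05 stood apart from the whole gamma sum at 0.33, and the gamma A sum moved from 0.20 to 2.55 when Pcdhga11 was left out.

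Position along the array went with level in the beta cluster. Beta genes from Pcdhb14 on, the 8 nearest to the gamma cluster, held 85.5% of the beta counts in the knockout (83.0% to 87.8%) and 90.6% in the control (86.4% to 93.8%). By FPKM, which allows for gene length, they held 80.7% and 86.6%. The cut at Pcdhb14 was not part of the planned comparisons. The rank correlation of order in the locus with FPKM over the 19 beta genes was 0.66 in the knockout and 0.77 in the control. Over the 21 gamma genes it was -0.20 and 0.25. The ranking of the genes by FPKM was more alike between the libraries for beta genes, with a rank correlation of 0.65, than for gamma genes, with 0.29, though the difference was not tested. These correlations run across genes of the same 2 libraries, many of them at a few counts, and are descriptions. Both stretches of the beta cluster were higher in the knockout, at a log2 ratio of 2.36 (1.76 to 3.07) before Pcdhb14 and 1.68 (1.47 to 1.90) from it on.

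Calls among genes around the locus went in both directions, as they did over all genes. Of 37 other genes within 1 Mb of the locus or between its clusters, 30 entered. Of these 3 were called higher and 6 lower, against 21.2% and 15.9% of all genes, and their median ratio was -0.15. Without the limit on low counts, 7 of the 37 were called higher and 7 lower, against 20.1% and 14.6% of all genes. Of the 5 that lie between or within the clusters, 4 entered, with 2 called higher and 0 lower around a median of 0.81. Taf7, a subunit of the general transcription factor TFIID that lies between the beta and gamma clusters, had 75 counts in the knockout and 25 in the control, a log2 ratio of 1.64 (0.99 to 2.38). Diaph1, an actin-nucleating formin just beyond the gamma cluster, had 1019 and 2802 counts, a log2 ratio of -1.38 (-1.49 to -1.28). Zmat2, a splicing factor gene before the alpha cluster, had 1422 and 1538 counts, a log2 ratio of -0.04 (-0.14 to 0.07). Besides Taf7, Gm38182 within the gamma cluster was called higher. The gene 3222401L13Rik, just before the gamma cluster, had 12 and 1 counts and did not enter. The 328 genes of chromosome 18 outside the family that entered, these neighbours included, had a median of -0.08, with 64 called higher and 78 lower.

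The 29 listed regulators of the locus all entered, of which 1 was called higher and 3 lower, and their median ratio was -0.29. Over all genes the shares were 21.2% higher and 15.9% lower. With library totals in place of scaled library sizes 0 were called higher and 5 lower, and the call of Dnmt3a was lost. Library totals gave 19.3% higher and 18.8% lower over all genes. Dnmt3a, a de novo DNA methyltransferase, had 411 counts in the knockout and 199 in the control, a log2 ratio of 1.12 (0.87 to 1.37). Smc1a, a core subunit of cohesin, had 916 and 2214 counts, a log2 ratio of -1.20 (-1.31 to -1.09). Nipbl, which loads cohesin on DNA, had 438 and 1030 counts, a log2 ratio of -1.16 (-1.32 to -0.99). Ctcf, whose protein binds the promoters of the variable exons, had 729 and 1246 counts, a log2 ratio of -0.70 (-0.83 to -0.56), and was called neither. Smc1a is an X-linked gene, and the sex-linked difference between the libraries stands beside its value.

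Of 27 listed partners and processing enzymes of protocadherins 25 entered, with 3 called higher, 3 lower and a median of -0.38. Beside them, 21.2% of all genes were called higher and 15.9% lower. Ret, a receptor tyrosine kinase that forms complexes with protocadherins in neurons, had 145 counts in the knockout and 1 in the control, a log2 ratio of 6.66 (4.76 to 12.57). Cyfip2, a subunit of the WAVE actin complex, had 282 and 44 counts, a log2 ratio of 2.74 (2.29 to 3.25). Wasf1, another subunit of that complex, had 81 and 366 counts, a log2 ratio of -2.09 (-2.47 to -1.75). Prkca, a protein kinase C isoform, had 315 and 826 counts, a log2 ratio of -1.31 (-1.51 to -1.13). The gene of focal adhesion kinase, Ptk2, which gamma and alpha protocadherins inhibit, had 996 and 2365 counts, a log2 ratio of -1.17 (-1.28 to -1.06).

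Protocadherins and large cadherins encoded outside the locus also differed by large ratios in both directions. Of 23 listed 19 were in the table and 11 entered. Of these 6 were called higher and 2 lower, against 21.2% and 15.9% of all genes. Their median of 1.63 moved to 0.59 over all 19 without the limit on low counts. Celsr2, a planar cell polarity cadherin, had 49 counts in the knockout and 0 in the control and was at least 17.2-fold higher. Its relative Celsr1 had 0 and 200 counts and was at least 63.2-fold lower. Pcdh18, a non-clustered protocadherin, had 803 and 16 counts, a log2 ratio of 5.68 (5.02 to 6.54). Pcdh19, another of that group, had 116 and 669 counts, a log2 ratio of -2.45 (-2.75 to -2.17). Like Smc1a, Pcdh19 is an X-linked gene, and the sex-linked difference between the libraries stands beside its value.

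**Figure D5:**
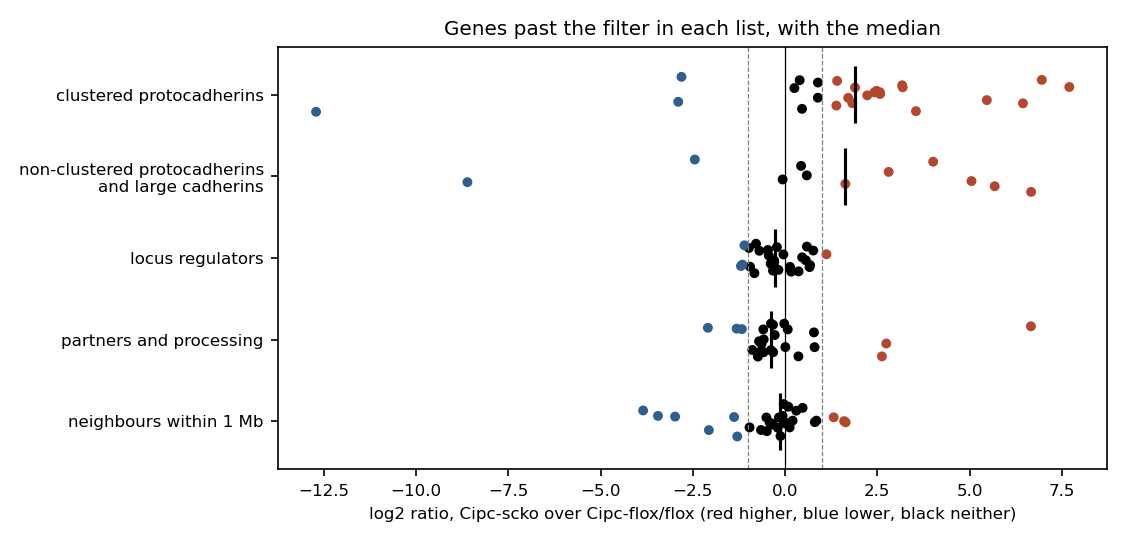
Log2 ratio of each gene that entered the comparison, by list, with a bar at the list's median and dashed lines at 2-fold; red, blue and black mark genes called higher, lower and neither, genes at 0 in a library are drawn at a value set by the prior count, and the vertical scatter within a list carries no value. The clustered protocadherins had a median of 1.89 and their neighbours within 1 Mb a median of -0.15.

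Markers of other cells differed between the libraries as well, and their part in the protocadherin values was not tested. Of 13 neuron markers listed 9 were in the table, with 5 of these at 0 counts in the knockout and 2 in the control, and their summed level was 252 and 461 CPM. Of the 7 that entered, 5 were called lower and 1 higher: Nefl, a neurofilament subunit, had 0 and 1820 counts, whereas Dcx, a microtubule protein of young neurons, had 57 and 0. Most of the neuron sum in the knockout came from Tubb3 at 246 CPM. The 4 Schwann cell and glia markers in the table, of 8 listed, summed to 1.56 and 20.8 CPM, with none at 0, 0 called higher and 2 lower. The 5 smooth muscle and pericyte markers in the table, of 7 listed, summed to 14169 and 663 CPM, with none at 0 and with 4 called higher and 1 lower. The 7 fibro-adipogenic markers in the table, of 9 listed, summed to 3049 and 2270 CPM, with none at 0, 2 called higher and 4 lower. Cd34, with 3 and 427 counts, stands both in that list and in the satellite cell list. The 6 endothelial markers in the table, of 8 listed, summed to 16.9 and 2.54 CPM, with 1 at 0 in each library, 3 called higher and 0 lower. The 4 macrophage markers in the table, of 7 listed, summed to 6.17 and 47.3 CPM, with none at 0, 1 called higher and 2 lower. Cd68 and Cd14 were the lower ones, Csf1r had 37 and 9 counts, and Lyz2 had 9 and 10. The satellite cell markers summed to 9149 and 4240 CPM, with 6 called higher and 2 lower. Beside the calls of these marker lists stand 21.2% higher and 15.9% lower over all genes.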

How the data were processed

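Per the file headers, the authors deposited a table of whole-number counts by Ensembl gene identifier and, for each library, FPKM values. CASAVA, StringTie 1.3.0, HISAT2 2.0.4 and the build GRCm38 appear in the submitters' processing notes without their roles. The counting tool, filters, strand use and annotation release were not given in the sources used here. The smallest total of a gene over both libraries was 2 counts.

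Symbols, exons and positions came from GENCODE vM21 on GRCm38, which named 16116 of the 16190 genes. Library sizes were adjusted by TMM (edgeR 4.0.16, R 4.3.3). Log2 ratios used a prior count of 0.5. Intervals are 95% exact binomial (Clopper-Pearson) intervals of the split of counts between libraries. They cover counting error only, because reads were counted without molecular identifiers and need not be independent molecules. With 1 library per group no p-value was computed. A gene at 0 was bounded by a floor of 3 counts.

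The members and lists were chosen with earlier results of these data known. Genes given in full are the 5 with the highest FPKM in either library per cluster, the C-type genes and members called higher. From the regulator, partner and other cadherin lists these are the 2 highest and 2 lowest called. Ctcf, Ptk2, Taf7, Gm38182, 3222401L13Rik, Diaph1 and Zmat2 were added after their values were seen, as were the marker genes named. Alternatives were other scalings (library totals, DESeq2 1.42.0 size factors, upper quartile), filters, prior counts, FPKM with a pseudocount, fold limits, and sums without a member.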

Additional observations from a re-analysis of the deposited data

How the results depend on the processing

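No paired analysis was possible because each genotype had 1 library, and for the same reason no replicate could be left out. With a filter of 5 CPM, which 11 members passed, 9 were called higher, 1 lower and 1 neither, with a median of 2.48. On log2(FPKM + 1), which shrinks low genes by construction, 5 were higher, 1 lower and 19 neither, with a median of 0.36. Without a filter 19 were higher, 4 lower and 18 neither, and with a 4-fold limit 12, 3 and 10. Of all genes, 17.9% were called higher and 14.9% lower at 5 CPM, 11.5% and 11.7% on log2(FPKM + 1), 20.1% and 14.6% without a filter, and 12.5% and 6.68% at 4-fold. With library totals, which moved the median of all genes by -0.14, the log2 ratio was 0.19 for the gamma sum, 0.065 for gamma A and 0.12 for the C-type genes. The gamma ratio was 0.37 with upper quartile scaling and 0.41 without Pcdhgc3. Leaving out the most counted gene gave 1.40 for beta and 2.26 for gamma B, and it reversed gamma A to -2.56. Leaving out Pcdhga11, chosen after seeing the data, gave 0.93 for gamma and 2.55 for gamma A, and leaving out Pcdhga1 as well gave 3.18. The alpha sum, of 1 gene, allowed no such step. The non-clustered list had a median of 0.59 without a filter, with 7 called higher and 4 lower. Of 246 alternative values of single members 208 stayed within their counting interval and none changed the sign of a ratio whose interval excluded equality. Pcdhb11, at 0.07, turned to -0.055 with library totals and to -0.027 and -0.0045 on FPKM with a pseudocount of 0.1 and 1. In all, 36 of the 38 outside their interval came from FPKM or a prior count of 5. Beyond these steps the causes were not tested. Depth limits the 15 members with under 20 counts.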
